A study of Rattus norvegicus with 8 samples.

Results

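The transcripts described here are unspliced long noncoding RNAs (lncRNAs) of the NONCODE catalogue that lie over annotated genes, 5780 of the 31243 transcripts in the lncRNA table (18.5%). They were chosen by 3 properties: an identifier that begins with NONRATT, a locus that shares at least 1 base with the locus of a gene in the gene table, and an end minus start minus length under 50, so that the locus leaves no room for an intron of that size. None of these uses a measured level.

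The study profiled liver RNA of wild type Sprague-Dawley rats of about 22 weeks by RNA-seq, to look for lncRNAs that differ in rats with high blood triglycerides. The 3 ND libraries came from rats on chow with 59.6% of its calories as carbohydrate, 8.5% as fat and 20.3% as protein. The 5 HFD libraries came from rats on a high fat diet of 43% carbohydrate, 41% fat and 17% protein. The labels give 24 weeks of diet, which is longer than the stated age, and 12 rats per diet. They do not say that each library is a different rat, so the p-values below measure the spread between these libraries.

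An RNA without an intron that lies over a gene can arise in several ways. It may be an antisense transcript with a promoter of its own, a stretch of the host gene's 3′ end or of a retained intron, the precursor of a microRNA (miRNA), or one of the abundant structured RNAs of the splicing, rRNA-processing or protein-sorting machinery. Neither table gives a strand, so reads of such a transcript and of the gene on the same bases cannot be told apart here.

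Of the 5780 transcripts, 5725 have an end minus start exactly equal to their length. A total of 5543 overlap 1 gene, 225 overlap 2 and 12 overlap 3 to 5. Inside 1 gene lie 4630 (80.1%), 137 hold a whole gene (51 of them also lie inside another), and 1064 (18.4%) cross a gene's edge. They cover 4610 of the 32545 genes, 3568 of these with 1 transcript and 1042 with 2 or more. The median length was 631 nt, with quartiles of 435 and 864 nt and a range from 201 to 57691 nt. Whether they fall in exons, introns or UTRs was not analysed here.

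Just inside the intron limit, NONRATT016567.2 (over Lmna) and NONRATT017407.2 (over Mcm9) have a surplus of 49 bases and mean levels of 3.0 and 0 FPKM. Just outside, NONRATT011407.2 and NONRATT031952.1 have a surplus of 50 bases and 1.82 and 4.90 FPKM. NONRATT008150.2 shares 1 base with Tfcp2l1 (4.32 FPKM). NONRATT014566.2 meets the end of Lyl1 in the deposited coordinates but shares 0 bases with it once its start is counted from 1 (15.7 FPKM); it was kept. Just outside, NONRATT025610.2 lies 1 base from the nearest gene (12.5 FPKM).

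Library depth split the samples in a way that the diets do not. Total gene counts were 30501673 to 36152937 in 2 libraries of each diet (ND-1 and ND-3, and HFD-1 with HFD-2), called the deep set here, and 12678616 to 18401981 in ND-2 and in HFD-3 to HFD-5, the shallow set, which holds 1 ND library. All 10 hepatocyte marker genes were above 1 FPKM in the gene table. Summed Kupffer cell and macrophage markers spanned 328 to 465 gene FPKM on ND and 286 to 804.5 on HFD (13 of 14 above 1 FPKM). The lymphocyte and neutrophil markers (6 of 19 above 1), whose sums were 19.7 to 37.4 and 19.2 to 68.3 gene FPKM, also overlapped between the diets. None of these marker genes was listed at 0 in every library.

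A miRNA gene is overlapped by 17 of the 5780 transcripts. All 19 miRNA genes involved were found in RefSeq (build GRCr8), with 33 mature miRNAs. For some of the loci discussed below, 1 mature miRNA each is shown here. Those of Mir10b, Mir133b, Mir206, Mir568 and Mir122 are not shown. Each is 5′ to 3′ with its seed, bases 2 to 8, in capitals; the seed is the stretch that pairs with target mRNAs. They belong to the miRNA genes and not to the transcripts: NONRATT012352.2 shares only 1 base with Mirlet7d, NONRATT013853.2 only 2 with Mir145 and NONRATT013520.2 only 6 with Mir3591, which is too few to hold a mature miRNA.
rno-miR-3591: aACACCAUugucacacucca
rno-let-7b-5p: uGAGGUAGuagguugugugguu
rno-let-7c-5p: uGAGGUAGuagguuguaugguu
rno-let-7d-5p: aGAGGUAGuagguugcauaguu
rno-let-7i-5p: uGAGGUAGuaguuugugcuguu
rno-miR-143-3p: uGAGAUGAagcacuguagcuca
rno-miR-145-5p: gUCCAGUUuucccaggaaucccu
rno-miR-142-3p: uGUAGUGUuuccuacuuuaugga
rno-miR-223-3p: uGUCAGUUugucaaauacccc
rno-miR-199a-5p: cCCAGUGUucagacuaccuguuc
rno-miR-26a-5p: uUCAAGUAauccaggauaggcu
The let-7 miRNAs share the seed GAGGUAG, and their loci are overlapped by 3 of the transcripts, NONRATT026196.2 (Mirlet7b and Mirlet7c-2), NONRATT012352.2 (Mirlet7d) and NONRATT025856.2 (Mirlet7i); the other seeds shown differ from it and from each other. The values below are those of the longer transcripts over these loci in fragments from a library of long RNA, and are not levels of the mature miRNAs.

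Most of the transcripts were detected, at low levels. Each library had 3600 to 3955 of the 5780 above 0 FPKM (fragments per kilobase of transcript, scaled to library size), and 2931 were above 0 in all 8. A total of 1106 (19.1%) were at 0 in every library. A level of at least 0.5 FPKM in at least 3 libraries was reached by 3989 (69.0%), which are the ones tested; 685 had some signal below that. The mean level had a median of 3.30 FPKM and an upper quartile of 15.7 FPKM over all 5780.

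In this the transcripts stood close to the spliced lncRNAs over genes and apart from unspliced ones between genes. Of the 16665 spliced NONCODE transcripts over genes, 65.8% passed the same filter and the median was 3.93 FPKM. Of the 4188 unspliced NONCODE transcripts between genes, 48.1% passed and the median was 0.397 FPKM. No test was made of these differences, since the transcripts share libraries. By chromosome, from 15.5% (chromosome 15) to 21.6% (chromosome 20) of the lncRNAs on the chromosomes with a number or X belonged to the set described here.

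The fragments behind these levels were few. The tested transcripts had a median of 11.4 estimated fragments per library (quartiles 3.13 and 43.8). In 495 of the 3989 (12.4%), no library had more than 3 fragments, and in 1437 (36.0%) none had more than 10. The deposited FPKM divide by an effective length that drops steeply in short transcripts: the length implied by fragments and FPKM was 47.8 nt at the median of tested transcripts of up to 250 nt, against 2356 nt for those above 2000 nt. A few fragments therefore give a high FPKM in a short transcript. Tested transcripts of up to 250 nt had a median of 17.7 FPKM from 2.38 fragments per library, and those above 600 and up to 1000 nt had 6.92 FPKM from 11.1 fragments.

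**Figure D1:**
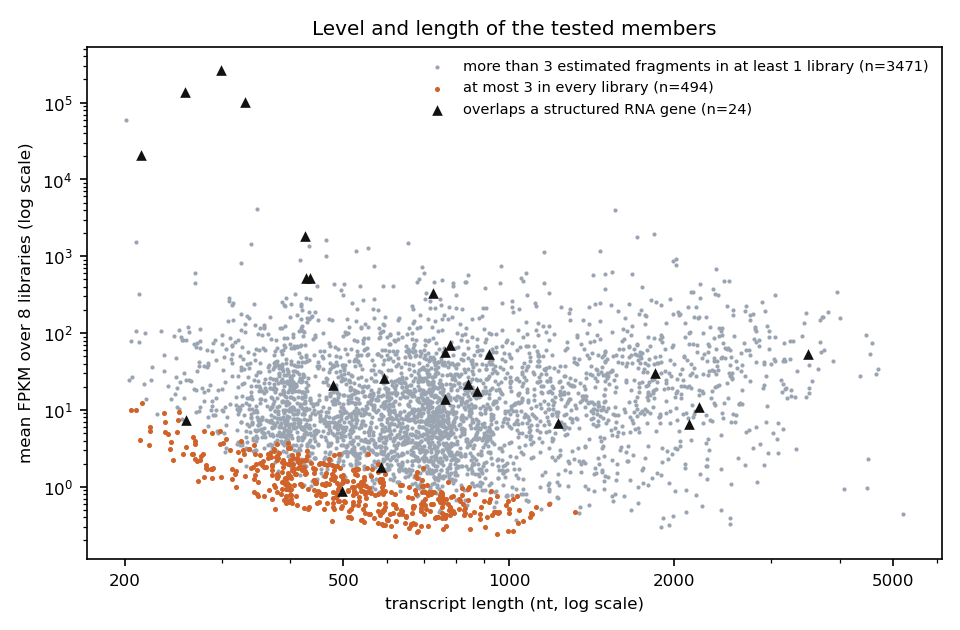
Mean FPKM over the 8 libraries against transcript length for the 3989 tested transcripts, both on log scales; orange points had at most 3 estimated fragments in every library, and black triangles overlap a gene for a structured RNA. The orange band slopes down with length, and 4 of the 5 highest transcripts, all 331 nt or shorter, are triangles.

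The highest levels belonged to transcripts over genes of structured RNAs, which work as folded RNA in protein complexes. There were 28 of these, 24 of them tested, and they made up 68.4% to 75.9% of the summed FPKM of the 5780 transcripts but 24.8% to 36.1% of their fragments. The highest was NONRATT025071.2 (chr6:91680226-91680524, build Rnor_6.0, 299 nt), over a gene for 7SL RNA, the core of the signal recognition particle that directs secreted proteins to the endoplasmic reticulum. It stood at 218319, 282658 and 210128 FPKM on ND and 299804, 215927, 347368, 249792 and 284529 FPKM on HFD, the highest value in HFD-3. The gene table lists the overlapped genes at 0 in every library.

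Next came NONRATT010821.2 (chr15:27738989-27739245, 257 nt) over the RNA subunit of nuclear RNase P, which trims the 5′ ends of tRNA precursors. Its levels were 109397, 154203 and 116735 FPKM on ND and 103228, 116229, 182149, 149334 and 179973 FPKM on HFD. All 4 shallow libraries were above all 4 deep ones, with 149334 FPKM as the lowest of the shallow set and 116735 as the highest of the deep set. NONRATT028802.2 (chr8:85480292-85480622, 331 nt) lies over 7SK, which holds back the elongation factor P-TEFb. It stood at 95618, 87506 and 110711 FPKM on ND and 113417, 104651, 101717, 83505 and 105792 FPKM on HFD, and the ranges of the diets overlapped.

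U3, the small nucleolar RNA of early rRNA cleavage, is covered by NONRATT017433.2 (chr20:45357179-45357392, 214 nt). Levels were 22772, 23549 and 27302 FPKM on ND and 22511, 27721, 23637, 13675 and 7709 FPKM on HFD, with HFD-4 and HFD-5 below every other library. SCARNA2, which guides modification of spliceosomal RNA, is covered by NONRATT016788.2 (chr2:211344017-211344442). Here all 8 libraries lay within a factor of 1.39, at 1728, 1919 and 1927 FPKM on ND and 1802, 2079, 1494, 1849 and 1821 FPKM on HFD.

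Not every structured RNA gene carried such levels. NONRATT013975.2 and NONRATT021898.2, over other copies of 7SK, were at 0 in every library, as were NONRATT008658.2 (SNORA17) and NONRATT026901.2 (Y RNA). The sequences of these copies were not compared here, and the deposited values do not say how reads that match several copies were assigned.

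**Figure D2:**
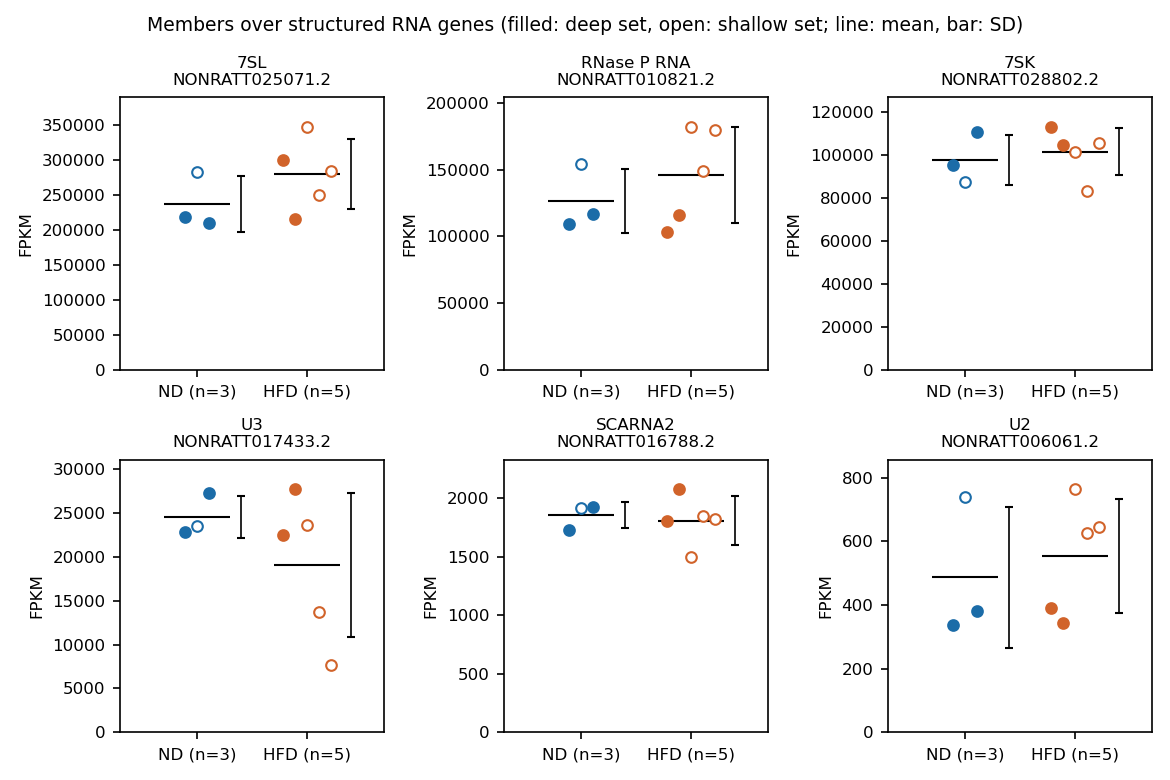
FPKM of 6 transcripts over structured RNA genes in each library, ND in blue and HFD in orange, with filled points for the deep set and open points for the shallow set; lines are diet means and bars are SD. The ND and HFD points overlap in all 6 panels, and in the RNase P and U2 panels every open point lies above every filled one.

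U2, the spliceosomal RNA that recognises the branch point, gave an example of a level that moved with depth. NONRATT006061.2 (chr10:89561792-89562218) had 338, 740.0 and 383 FPKM on ND and 392, 342, 765, 625 and 645 FPKM on HFD, while its estimated fragments were 313, 343 and 303 estimated fragments on ND and 368, 311, 339, 308 and 341 on HFD. The fragment number was nearly constant while library size varied, and the FPKM was higher in all 4 shallow libraries. NONRATT004923.2, over another U2 copy, had 296 to 393 estimated fragments and 346 to 407 FPKM in deep libraries against 584 to 763 in shallow ones.

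In a limma fit with diet and depth set as terms, added after the data were seen, 18 of the 3989 transcripts differed between the depth sets at an adjusted p under 0.05, 13 higher and 5 lower in the shallow set. Over all 19799 tested lncRNAs the share was 0.47%. All shallow libraries lay above all deep ones in 203 transcripts (5.09%; 4.19% of all tested lncRNAs) and below in 211 (5.29%; 6.18% of all). The 2 U2 transcripts were among the 18 called (shallow minus deep 0.94, adjusted p = 0.0193, for NONRATT006061.2 and 0.82, adjusted p = 0.0353, for NONRATT004923.2, limma). So was NONRATT000602.2 over Cebpa, a transcription factor of hepatocyte identity, with 371 to 472 FPKM in deep and 685 to 890 FPKM in shallow libraries. Of the 18, NONRATT011798.2 (Wdfy4), NONRATT031099.2 (AABR07039471.1), NONRATT020520.2 (Mmrn1) and NONRATT031021.2 (Iqsec2) had at most 3 fragments in any library.

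Among transcripts that are not over structured RNA genes, the highest mean level, 59673 FPKM, was over Gc. Those over Acaa2 (4113 FPKM), Alb (4024 FPKM) and LOC299282 (1959 FPKM) followed. NONRATT009270.2 (chr14:20280881-20281081, 201 nt) lies inside Gc, the vitamin D binding protein of plasma, and had 56675, 56208 and 50151 FPKM on ND and 57469, 53836, 62982, 67419.7 and 72642 FPKM on HFD. Its implied effective length was 30.7 nt, and its fragments came to 1.37% to 2.94% of the Gc gene counts. NONRATT009795.2 (chr14:19176791-19178347, 1557 nt), inside the albumin gene Alb, had 5030.3, 3342 and 3829 FPKM on ND and 4292, 4857, 3072, 3870.5 and 3899.6 FPKM on HFD. Its fragments were 0.698% to 0.886% of the Alb counts. Such percentages, here and below, are not shares of a gene's reads. Over 7SK, where transcript and gene have the same locus, the fragments of NONRATT028802.2 came to 122% to 154% of the gene counts.

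NONRATT013576.2 (chr18:70762052-70762399, 348 nt) over Acaa2, the last enzyme of mitochondrial beta-oxidation, had 3424, 2952 and 4062 FPKM on ND and 4205, 4807, 5601, 4251 and 3605 FPKM on HFD. NONRATT025311.2 over LOC299282 had 2619.6, 1554 and 2651 FPKM on ND and 2344, 2309, 2289, 1037 and 870.5 FPKM on HFD, with HFD-4 and HFD-5 the lowest. In neither did the diets separate.

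The levels of a transcript and of its gene stand on different scales, since the tables were normalized separately. The denominator implied by lncRNA fragments and FPKM was 1814474 to 4006789 fragments per library, 0.919 to 1.03 times the summed lncRNA fragments, whereas gene FPKM divide by the gene count total. Gene totals were 6.71 to 9.02 times that denominator. As deposited, the transcript's FPKM was above its gene's in 2565 of 3718 pairs with both tested (69.0%), with a median ratio of 2.26. With both taken per base of full length and per gene count total, it was above in 385 pairs (10.4%) and the median ratio was 0.184. Gene FPKM below are therefore given for their pattern over libraries only. In 1208 of the 3718 pairs (32.5%), transcript and gene were highest in the same library.

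The main question of the design is which lncRNAs differ between the diets. Of the 3989 tested transcripts, 0 passed an adjusted p under 0.05 in limma's moderated test, and the smallest adjusted p was 0.199. Over all 19799 tested lncRNAs 2 passed (0.0101%), 1 higher (0.00505%) and 1 lower (0.00505%). At an unadjusted p under 0.05 there were 170 of the 3989 (4.26%), 92 higher and 78 lower on HFD, beside 5.21% of all tested lncRNAs. A count test, edgeR on the estimated fragments, called 0 of 2234 testable transcripts (0.0163% of all lncRNAs in that test) and gave 100 (4.48%) at an unadjusted p under 0.05, beside 5.26% of all lncRNAs in that test.

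The median difference, HFD minus ND, was -0.01 on the log2(FPKM + 0.5) scale, beside -0.02 over all tested lncRNAs, with quartiles of -0.29 and 0.28. Every HFD library was above every ND library in 64 transcripts (1.60%; 1.68% of all tested lncRNAs) and below in 76 (1.91%; 2.14% of all). None of these shares was above that of all tested lncRNAs. In bulk tissue, fewer cells of a type and less RNA per cell cannot be told apart. The median SE was 0.43, from 0.22 in the 917 transcripts with a mean of at least 50 fragments to 0.71 in the 1361 with under 5.

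**Figure D3:**
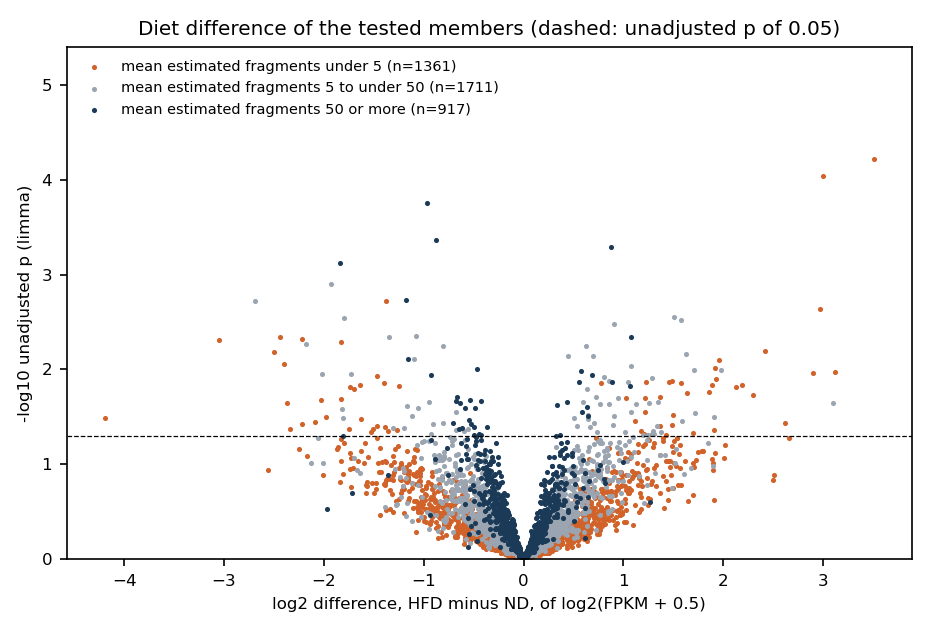
Log2 difference between the diets (HFD minus ND, on log2(FPKM + 0.5)) against -log10 of the unadjusted limma p for the 3989 tested transcripts, coloured by mean estimated fragments per library. Beyond 2 log2 units on either side lie 37 transcripts, 30 of them with a mean under 5 fragments and 0 of the 917 with at least 50.

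The transcripts with the smallest p are described next as a ranking, none of them having passed. On the lower side the first was NONRATT030440.2 (chrX:15055368-15055783, 416 nt) over Ebp, the sterol isomerase of cholesterol synthesis. Levels were 1029, 1379 and 1416 FPKM on ND and 689, 674, 752, 615 and 513 FPKM on HFD, means 1274 ± 213 FPKM on ND (SD, n = 3) and 649 ± 90.2 FPKM on HFD (SD, n = 5). Every HFD library was below every ND library, and the difference was -0.97 ± 0.17 (SE; unadjusted p = 0.000177, limma adjusted p = 0.269). It was -0.82 in the deep libraries and -1.16 in the shallow ones. Ebp itself had 62.9, 96.9 and 86.3 gene FPKM on ND and 46.2, 41.2, 49.8, 41.3 and 39.5 gene FPKM on HFD, a log2 fold change of -0.92 ± 0.13 (SE; edgeR adjusted p = 0.0851). The transcript's fragments came to 33.8% to 47.1% of the Ebp counts, which again is not a share of the gene's reads.

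NONRATT008589.2 (chr13:113570321-113571652) lies over Plxna2, a semaphorin receptor. It had 146, 117 and 135 FPKM on ND and 86.5, 71.3, 72.3, 77.1 and 55.7 FPKM on HFD, again without overlap between the diets. The difference was -0.87 ± 0.17 (SE; unadjusted p = 0.000436, limma adjusted p = 0.334), and Plxna2 gave -0.64 ± 0.12 (SE; edgeR adjusted p = 0.126). Another transcript in the same gene, NONRATT008588.2, differed by -0.26 (unadjusted p = 0.454).

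NONRATT008075.2 (chr12:48127149-48128513) lies over Acacb, the acetyl-CoA carboxylase at the outer mitochondrial membrane, whose product malonyl-CoA restrains fatty acid oxidation. It had 305, 355 and 153 FPKM on ND and 65.5, 36.7, 71.2, 126 and 83 FPKM on HFD, with no overlap. The difference was -1.84 ± 0.38 (SE; unadjusted p = 0.000759, limma adjusted p = 0.358), or -2.12 in the deep libraries and -1.97 in the shallow ones. Acacb ranked the 8 libraries in the same order, at 22, 28.7 and 12 gene FPKM on ND and 5.22, 3.17, 6.01, 9.77 and 6.18 gene FPKM on HFD.

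NONRATT006019.2 (chr10:88400985-88401652) lies over Acly, which makes cytosolic acetyl-CoA for lipid synthesis. It had 33.4, 188 and 35.5 FPKM on ND and 10.4, 19.1, 3.37, 11.1 and 7.54 FPKM on HFD. ND-2 was far above the rest, as it was for Acly itself with 663 gene FPKM. The difference was -2.69 ± 0.64 (SE; unadjusted p = 0.00189), and ran over -3.12 to -1.88 when each library was left out.

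Irs3, an insulin receptor substrate of rodents, is covered by NONRATT007368.2, which had 6.8, 15.6 and 17.2 FPKM on ND and 3.22, 1.82, 2.33, 4.21 and 3.27 FPKM on HFD and a difference of -1.92 ± 0.43 (SE; unadjusted p = 0.00125). NONRATT029313.2 extends over Fer1l5, a ferlin family member, by 32.1% of its length. Its levels were 5.1, 4.49 and 4.41 FPKM on ND and 0.804, 0.82, 0.586, 2.11 and 0.985 FPKM on HFD, from 1 to 19 fragments per library, and its difference was -1.79 ± 0.46 (SE; unadjusted p = 0.00289). Among the genes overlapped, Fer1l5 alone passed edgeR's adjusted threshold, as described below. NONRATT020983.2 over RGD1306151 had 1 to 6 fragments per library and a difference of -1.38 ± 0.33 (SE; unadjusted p = 0.00188).

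On the higher side, the first with fragments in all 8 libraries was NONRATT012054.2 (chr16:68955016-68955931) over Eif4ebp1, the mTOR-regulated inhibitor of cap-dependent translation. It had 16.6, 17.7 and 16.7 FPKM on ND and 31.2, 33.9, 31, 32.7 and 29.2 FPKM on HFD, means 17 ± 0.585 FPKM on ND (SD, n = 3) and 31.6 ± 1.79 FPKM on HFD (SD, n = 5). The diets did not overlap, and the spread within each was small. The difference was 0.87 ± 0.17 (SE; unadjusted p = 0.000507, limma adjusted p = 0.346), 0.94 in the deep libraries and 0.79 in the shallow ones. Eif4ebp1 had 10.8, 12.1 and 12.7 gene FPKM on ND and 16.5, 21.2, 18.3, 16.6 and 14.7 gene FPKM on HFD, a log2 fold change of 0.54 ± 0.13 (SE; edgeR adjusted p = 0.34).

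NONRATT018399.2 crosses an edge of Slc1a2, a glutamate transporter that the liver uses around the central vein. It had 10.7, 16.6 and 5.59 FPKM on ND and 31.8, 20.7, 44.7, 35.7 and 20.8 FPKM on HFD, a difference of 1.5 ± 0.38 (SE; unadjusted p = 0.0028), while Slc1a2 gave 1.14 ± 0.18 (SE; edgeR adjusted p = 0.102). NONRATT000757.2 over Oca2, a melanosome transport protein, had 20, 14.1 and 18.9 FPKM on ND and 40.5, 31.4, 34.3, 23.5 and 38.4 FPKM on HFD and a difference of 0.90 ± 0.23 (SE; unadjusted p = 0.00329). NONRATT001828.2 over As3mt, an arsenic methyltransferase, had 35.4, 18.5 and 30.2 FPKM on ND and 43, 39.8, 66.9, 78.8 and 71.3 FPKM on HFD. Its difference was 1.08 ± 0.30 (SE; unadjusted p = 0.0046), but 0.33 in the deep libraries and 1.94 in the shallow ones. NONRATT010839.2 over the Golgi GTPase gene Rab2b had 1.55, 3.16 and 1.82 FPKM on ND and 8.48, 7.13, 4.95, 5.94 and 11.1 FPKM on HFD, a difference of 1.58 ± 0.40 (SE; unadjusted p = 0.00299), and Rab2b gave 0.01 ± 0.20 (SE; edgeR adjusted p = 1).

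The 2 smallest p on the higher side belonged to transcripts at 0 in all ND libraries, which passed the filter on low levels only through HFD and so had to differ; nothing is read from their place in the ranking. NONRATT008053.2 (chr12:46802351-46802728) over the focal adhesion gene Pxn had 0, 0 and 0 estimated fragments on ND and 2, 2, 3, 3 and 3 on HFD. NONRATT020540.2 (chr4:98651920-98652392) over Eif2ak3, the endoplasmic reticulum stress kinase PERK, had 0, 0 and 0 estimated fragments on ND and 5, 2, 2, 3 and 2 on HFD. With 13 and 14 fragments in all on HFD, both are at the edge of detection. Their differences of 3.51 and 3.0 on the log2(FPKM + 0.5) scale depend on the pseudocount and are no bounds (limma adjusted p = 0.199 for each, the lowest in the set). Pxn gave 0.29 ± 0.16 (SE; edgeR adjusted p = 0.975) and Eif2ak3 0.13 ± 0.20 (SE; edgeR adjusted p = 0.993). NONRATT010464.2 over Mphosph8 followed Eif4ebp1 in this ranking, with 0 to 3 fragments per library. It had 1, 0 and 0 estimated fragments on ND, so it too passed the filter only through HFD. Nothing is read from its place either. The reverse pattern, 0 in all HFD libraries and above 0.5 FPKM in each ND library, was seen in NONRATT008918.2 (Dusp27) and NONRATT019817.2 (Nol4l), which had 1 or 2 fragments in each ND library.

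Grouped by the genes they overlap, transcripts over cholesterol genes had the lowest median difference of the 22 lists. The list of 25 genes of cholesterol synthesis and uptake is overlapped by 10 transcripts over 8 genes, 9 of them tested. None passed the adjusted threshold. All 9 had a negative difference, 7 of them at an unadjusted p under 0.05 (2.58% of all tested lncRNAs did so on the lower side), and the median was -1.16, beside -0.02 over all tested lncRNAs. In 3 of the 9 the diets did not overlap. The lists were drawn up with earlier results of these data known, so these counts describe and do not support a direction.

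Along the pathway, Pmvk, which phosphorylates mevalonate phosphate, is covered by NONRATT015456.2, with 31.7, 105 and 88.9 FPKM on ND and 13.7, 23.3, 44.7, 16.5 and 4.4 FPKM on HFD and a difference of -2.02 ± 0.65 (SE; unadjusted p = 0.0111). Fdps, which makes farnesyl diphosphate, was the exception in size. Its transcript NONRATT016585.2 had 8.11, 20.7 and 10.6 FPKM on ND and 8.56, 5.35, 17.5, 8.35 and 14.7 FPKM on HFD and a difference of -0.27 ± 0.44 (SE; unadjusted p = 0.557), while Fdps gave -1.57 ± 0.28 (SE; edgeR adjusted p = 0.118). The transcript's fragments were 0.186% to 1.18% of the Fdps counts, and without ND-2 its difference was 0.10.

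Among the late sterol steps, Tm7sf2, the sterol C14 reductase, is covered by NONRATT003487.2. It had 10.9, 51 and 49 FPKM on ND and 8.44, 3.71, 15.6, 5.85 and 3.27 FPKM on HFD, ND-1 lying within the HFD range, and a difference of -2.18 ± 0.61 (SE; unadjusted p = 0.00538). Hsd17b7, a sterol ketone reductase, holds 2 transcripts. NONRATT008934.2 had 25.5, 59.5 and 34.4 FPKM on ND and 14.1, 17.4, 19.2, 16.7 and 14.5 FPKM on HFD and a difference of -1.18 ± 0.28 (SE; unadjusted p = 0.00184), without overlap. NONRATT008933.2 gave -1.16 ± 0.35 (SE; unadjusted p = 0.00771). Hsd17b7 itself had a log2 fold change of -1.30 ± 0.26 (SE; edgeR adjusted p = 0.151). Both transcripts lie over this gene and may share reads with it, which was not tested. NONRATT008934.2 also overlaps LOC100366054. Msmo1, the sterol C4 oxidase, gave -1.31 ± 0.56 (SE; unadjusted p = 0.0417) in NONRATT011461.2 from 1 to 21 fragments per library. Sc5d, the lathosterol desaturase, gave -0.77 ± 0.37 (SE; unadjusted p = 0.0676) in NONRATT028448.2, which was highest in ND-3 and HFD-1 (359 and 222 FPKM); the difference was -0.42 without ND-3.

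For fatty acid and triglyceride synthesis, 9 transcripts lie over 6 of the listed genes and 7 were tested. None passed; 4 differences were negative and 3 positive, with a median of -0.25, and 3 on the lower side had an unadjusted p under 0.05, where 2.58% of all tested lncRNAs stood on that side. Besides those over Acacb and Acly, the third was NONRATT001542.2 over Fads1, the delta-5 desaturase, with 1, 10 and 15 estimated fragments on ND and 1, 1, 0, 0 and 0 on HFD. ND-1 had 1 fragment, as had HFD-1 and HFD-2, so the difference of -3.05 ± 0.85 (SE; unadjusted p = 0.00494) rests on ND-2 and ND-3. All 3 positive differences came from Lpin2, a phosphatidate phosphatase of triglyceride synthesis, whose 3 tested transcripts gave 1.05, 0.56 and 0.76 (unadjusted p = 0.0565 for NONRATT029746.2, 0.225 for NONRATT029747.2 and 0.101 for NONRATT029748.2, which also overlaps a U7 gene). Leaving out each library in turn moved NONRATT029746.2 over 0.55 to 1.41, lowest without ND-1, and NONRATT029747.2 over 0.25 to 0.91, lowest without ND-2; NONRATT029748.2 was lowest without HFD-3, at 0.54. NONRATT011508.2 over Acsl1 gave -0.25 and turned to 0.11 without ND-3.

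For fatty acid oxidation, ketone synthesis and targets of the nuclear receptor PPARA, 14 transcripts lie over 11 genes and 11 were tested. None passed; 9 differences were positive and 2 negative, the median was 0.37, and 4 on the higher side had an unadjusted p under 0.05 (2.63% of all tested lncRNAs on that side). The first was NONRATT025532.2 over Creb3l3, a liver transcription factor of fasting metabolism. It had 78.8, 115 and 106 FPKM on ND and 141, 128, 196, 137 and 146 FPKM on HFD, without overlap, and a difference of 0.58 ± 0.18 (SE; unadjusted p = 0.0104). NONRATT013574.2, a second transcript over Acaa2, had 25.4, 13.6 and 8.44 FPKM on ND and 28.7, 20.3, 44.7, 34.9 and 28.8 FPKM on HFD and a difference of 1.06 ± 0.36 (SE; unadjusted p = 0.0149).

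NONRATT023483.2 reaches into Cyp4a2, a fatty acid omega-hydroxylase, by 57.2% of its length and had 394, 398 and 417 FPKM on ND and 576, 461, 1088, 487 and 694 FPKM on HFD. The 3 ND libraries were close together and below all HFD libraries, with HFD-3 the highest; the difference was 0.64 ± 0.25 (SE; unadjusted p = 0.0311). NONRATT026197.2 over Ppara had 57.3, 11.8 and 29.6 FPKM on ND and 43.1, 35.7, 124, 172 and 56.9 FPKM on HFD and a difference of 1.38 ± 0.60 (SE; unadjusted p = 0.0454). This one was -0.07 in the deep libraries and 3.13 in the shallow ones, where ND-2 is the sole ND library. NONRATT004472.2 over Acadvl, the very-long-chain acyl-CoA dehydrogenase, had the opposite sign to its gene, with -0.80 ± 0.42 (SE; unadjusted p = 0.0882) for the transcript and 0.30 ± 0.12 (SE; edgeR adjusted p = 0.836) for Acadvl. NONRATT023452.2 over Cpt2 and NONRATT016876.2 over Hadh differed by 0.06 and 0.00.

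**Figure D4:**
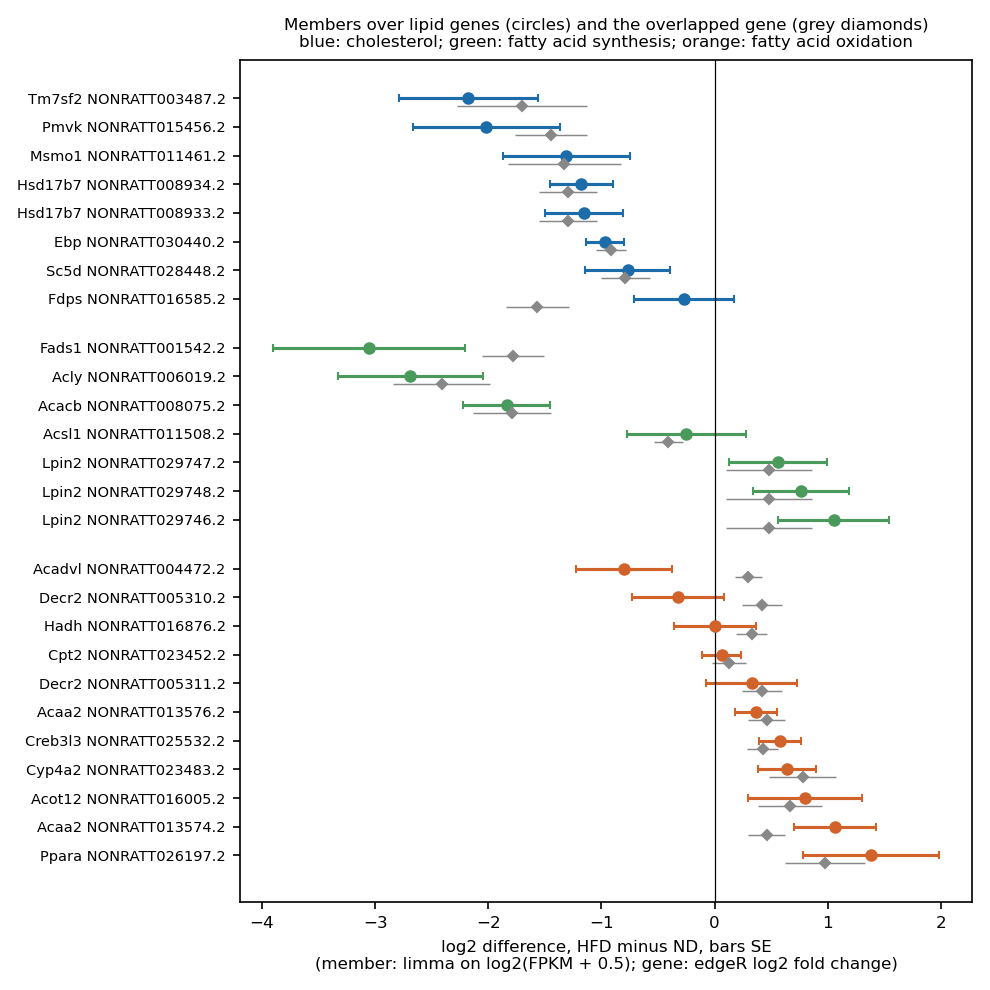
Log2 difference, HFD minus ND, with its SE for 26 of the 27 tested transcripts over genes of 3 lipid lists (circles) and the edgeR log2 fold change with its SE of the overlapped gene (grey diamonds). All 8 cholesterol transcripts plotted are left of 0, and the Fdps circle lies at -0.27 with its gene's diamond at -1.57; none of the transcripts passed the adjusted threshold.

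In the other lists with tested transcripts, 0 passed. Counts at an unadjusted p under 0.05, which 5.21% of all tested lncRNAs had, were 2 of 7 for xenobiotic and retinoid genes (1 in each direction), 1 of 14 for plasma proteins, 0 of 4 for acute phase genes, 1 of 11 for amino acid metabolism, 0 of 4 for bile acid genes and 2 of 8 for glucose metabolism (1 in each direction). They were 1 of 9 for clock genes, 0 of 10 for oxidative phosphorylation, 1 of 12 for ribosomal proteins and translation factors, 0 of 10 for hepatocyte transcription factors and 1 of 16 for RNA-binding proteins. Medians in these lists ran from -0.29 (amino acid metabolism) to 0.54 (bile acid genes). The list of lncRNA and small RNA host genes, of which the gene table holds 1 of 24 symbols, and the erythroid markers had no overlapping transcript.

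Examples from these lists include NONRATT001596.2 over Aldh1a1, a retinaldehyde dehydrogenase, with 2.71, 1.9 and 5.83 FPKM on ND and 39.3, 15.4, 20.3, 5.35 and 7.49 FPKM on HFD and a difference of 1.98 ± 0.62 (SE; unadjusted p = 0.0101). HFD-4 lay below ND-3 in the transcript, whereas Aldh1a1 itself had 18.9, 32 and 28.7 gene FPKM on ND and 188, 153, 205, 106 and 101 gene FPKM on HFD, with every HFD library above every ND library and a log2 fold change of 2.50 ± 0.29 (SE; edgeR adjusted p = 0.0579). NONRATT016705.2 over Phgdh, the first enzyme of serine synthesis, had 2.92, 8.6 and 3.41 FPKM on ND and 20.1, 81.9, 6.01, 24.3 and 7.54 FPKM on HFD, HFD-2 being the highest. NONRATT030225.2 over the insulin receptor substrate gene Irs1 had 56.5, 58.6 and 59 FPKM on ND and 76.4, 76.5, 89.4, 78.1 and 77 FPKM on HFD, with a narrow spread in each diet and a difference of 0.45 ± 0.13 (SE; unadjusted p = 0.00717). NONRATT019476.2 over the clock repressor gene Cry2 had 11.2, 14.7 and 16.9 FPKM on ND and 7.16, 4.91, 8.51, 7.66 and 4.28 FPKM on HFD and a difference of -1.10 ± 0.33 (SE; unadjusted p = 0.00784), while Cry2 gave -0.09 ± 0.11 (SE; edgeR adjusted p = 0.993).

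NONRATT015370.2 over Fga, the fibrinogen alpha chain, gave -0.53 ± 0.19 (SE; unadjusted p = 0.0208) and was lower in all HFD libraries than in any ND library. NONRATT022687.2 over the splicing factor gene Srsf4 gave 0.69 ± 0.22 (SE; unadjusted p = 0.0114), and NONRATT005579.2 over the translation initiation helicase gene Eif4a1 gave 0.63 ± 0.24 (SE; unadjusted p = 0.0249). NONRATT027736.2 over Cox5a, NONRATT025041.2 over Foxa1, NONRATT002689.2 over Saa4 and NONRATT005891.2 over Abcc3 had the smallest p of their lists, at 0.0806, 0.0922, 0.118 and 0.0602.

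The highest transcripts of these lists had overlapping diets. Over Cyp1a2, an inducible cytochrome P450, NONRATT028631.2 spanned 657 to 1843 FPKM on ND and 476 to 2143 on HFD. Over Got1, the cytosolic aspartate aminotransferase, NONRATT003797.2 spanned 213 to 759 and 102 to 366 FPKM. NONRATT000603.2, the second transcript over Cebpa, spanned 706 to 789 and 622 to 984 FPKM, with no split by depth set. Narrower ranges were seen in NONRATT006444.2 over the splicing cofactor gene Son, at 383 to 442 and 368 to 432 FPKM, and NONRATT014913.2 over the ribosomal protein gene Rps23, at 185 to 222 and 164 to 225 FPKM. NONRATT020765.2 over the clock gene Bhlhe40 differed by -0.93 (unadjusted p = 0.0550), at 292 to 421 and 117 to 488 FPKM.

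Transcripts over markers of other liver cell types were few. All 5 tested transcripts over endothelial markers had positive differences (median 0.61), but they lie over only 3 genes. The smallest p was that of NONRATT026636.2 over the scavenger receptor gene Stab2. It had 4.33, 1.47 and 6.76 FPKM on ND and 5.73, 8.83, 10.8, 5.53 and 7.73 FPKM on HFD and a difference of 0.96 ± 0.47 (SE; unadjusted p = 0.0693). That difference ranged over 0.43 to 1.37 when a library was left out, and it was 0.36 in the deep libraries and 2.06 in the shallow ones, where ND-2, at 1 fragment, is the sole ND library. Summed endothelial markers in the gene table (11 of 11 above 1 FPKM) were 79.9 to 97.3 gene FPKM on ND and 95.4 to 108 on HFD; their part in these differences was not tested. The 5 over Kupffer cell and macrophage markers had a median of -0.25, those over lymphocyte (1 tested), stellate (1) and cholangiocyte (2) markers differed by -0.11, 0.31 and a median of -0.23, and none had an unadjusted p under 0.05.

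The transcripts over miRNA genes, 15 of 17 tested, gave no call either. NONRATT013520.2 (chr18:60755375-60756128), which lies inside LOC502176 and reaches 6 bases into the Mir3591 locus, had the widest range. In RefSeq (build GRCr8), Mir3591 (chr18:61028804-61028912, minus strand) encloses Mir122 (chr18:61028817-61028901, plus strand). Levels of NONRATT013520.2 were 35.2, 328 and 911 FPKM on ND and 47.8, 1399, 289, 565 and 394 FPKM on HFD. ND-1 and HFD-1 were low and ND-3 and HFD-2 high, and all 4 belong to the deep set. The highest was 39.8 times the lowest, and the difference between the diets was 0.61 ± 1.15 (SE; unadjusted p = 0.605).

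Among the let-7 loci with the shared seed GAGGUAG, NONRATT012352.2, which reaches 1 base into Mirlet7d, was the highest, at 91.2, 89.3 and 90.9 FPKM on ND and 142, 97.1, 72.9, 79.4 and 109.5 FPKM on HFD. NONRATT025856.2 (Mirlet7i) had 5.27, 20.4 and 4.81 FPKM on ND and 9.9, 14.3, 7.54, 19.2 and 21.1 FPKM on HFD, and NONRATT026196.2 (Mirlet7b and Mirlet7c-2) had 8.79, 13.4 and 16.3 FPKM on ND and 17.4, 9.71, 6.23, 15.4 and 11.8 FPKM on HFD. Their differences were 0.11, 0.69 and -0.12, each with overlapping diets.

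NONRATT013854.2 and NONRATT013853.2 lie next to each other over Mir143 and Mir145, a cluster known from smooth muscle and stellate cells. NONRATT013854.2 had 38, 18.8 and 36.2 FPKM on ND and 22.4, 38.3, 10.6, 9.86 and 10.8 FPKM on HFD and NONRATT013853.2 had 19.5, 13.8 and 17.3 FPKM on ND and 10.4, 24.7, 8.03, 4.53 and 8.73 FPKM on HFD. Both were lowest in the 3 shallow HFD libraries, and their differences were -0.88 (unadjusted p = 0.0889) and -0.76 (unadjusted p = 0.129). The loci of blood cell miRNAs were low: NONRATT033833.1 (Mir223) had 2.70 to 20.9 FPKM and NONRATT005839.2 (Mir142) 4.28 to 26.4 FPKM, both highest in HFD-3, which also had the highest summed Kupffer cell and macrophage markers (804.5 gene FPKM); their part in these levels was not tested.

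NONRATT008392.2, inside Dnm3 over Mir199a2, had the smallest p of the miRNA loci, with 0, 0 and 2 estimated fragments on ND and 3, 5, 1, 1 and 3 on HFD and a difference of 1.85 ± 0.65 (SE; unadjusted p = 0.0171). With signal in only 1 ND library, NONRATT008392.2 passed the filter on low levels only through HFD. Nothing is therefore read from its difference or its p. NONRATT028144.2 over Mir26a had 0 to 2 fragments per library. NONRATT018268.2 (Mir10b) and NONRATT029268.2 (Mir206 and Mir133b) were at 0 in every library. NONRATT006971.2, a 2741 nt transcript that extends over Mir568, was the highest after the Mir3591 locus, at 120.0 to 178 FPKM.

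**Figure D5:**
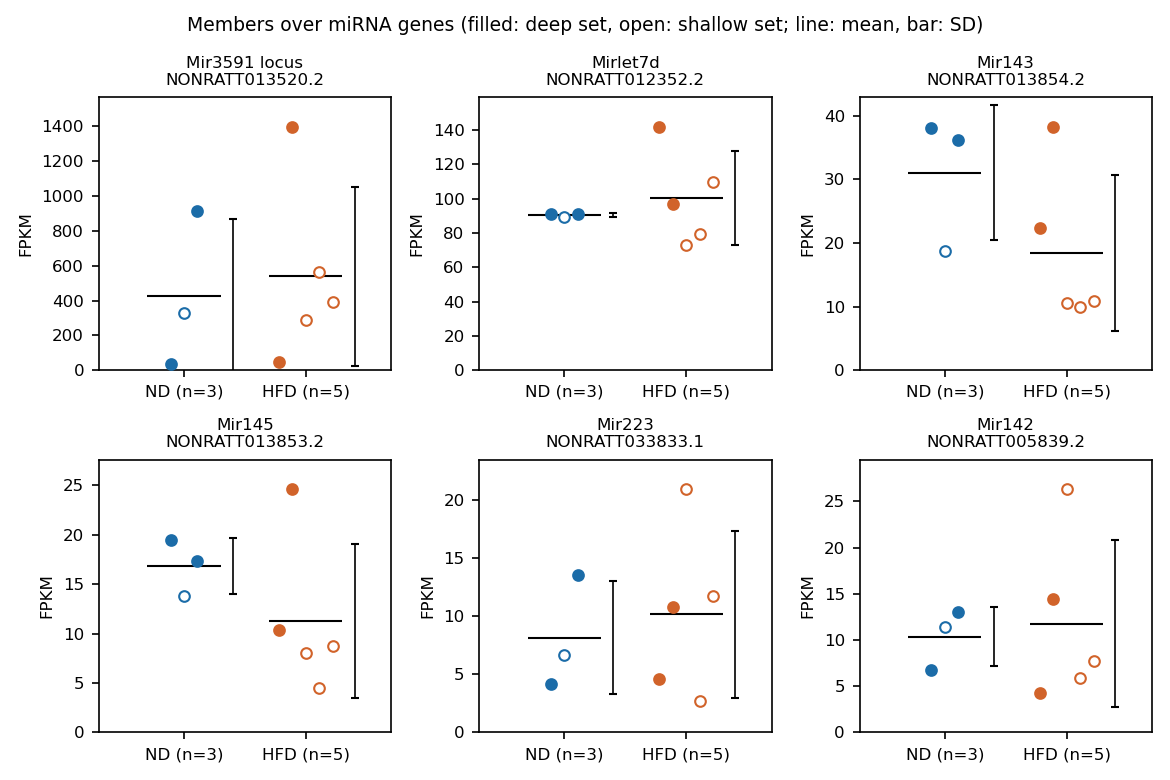
FPKM of 6 transcripts over miRNA genes in each library, ND in blue and HFD in orange, filled for the deep set and open for the shallow set, with diet means as lines and SD as bars (the ND bar of the Mir3591 locus goes below 0 and is cut at the axis). The Mir3591 locus spans 35.2 to 1399 FPKM with no order by diet or depth, and the open HFD points are the lowest in the Mir143 and Mir145 panels.

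Some well-measured transcripts differed widely between libraries of 1 diet. Of those with a mean of at least 20 FPKM and at least 30 fragments in some library, the 8 with the largest SD of log2(FPKM + 0.5) were taken, a choice made on their values. NONRATT003648.2, in a region shared by Aldh1a7 and Trpm3, had 183, 200.1 and 2.5 FPKM on ND and 3.53, 2.9, 1.51, 249.6 and 39.4 FPKM on HFD, so ND-1, ND-2 and HFD-4 were high and the others under 40 FPKM. NONRATT025386.2 over the immunoglobulin gene Ighm had 70.7, 16.5 and 5.52 FPKM on ND and 100.4, 140.1, 18.7, 0 and 2.41 FPKM on HFD. NONRATT007924.2 over Glt1d1 had 108, 49.5 and 23.2 FPKM on ND and 16.9, 0.755, 5.69, 58.6 and 105 FPKM on HFD, and Glt1d1 ranked the 8 libraries in the same order.

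NONRATT023367.2 over the lipid droplet gene Plin2 had 19.6, 11 and 148 FPKM on ND and 4.73, 62.4, 6.37, 8.03 and 5.35 FPKM on HFD, high in ND-3 and HFD-2. NONRATT017172.2 over the cell cycle inhibitor gene Cdkn1a had 36.4, 9.04 and 88.5 FPKM on ND and 32.7, 12.2, 92.9, 293 and 218 FPKM on HFD, and NONRATT013819.2 over the collagen crosslinking gene Lox had 19.6, 0 and 20.2 FPKM on ND and 56, 16, 46.6, 127 and 58.6 FPKM on HFD. The Lox transcript differed by 3.09 ± 1.14 (SE; unadjusted p = 0.0224), with ND-2 at 0. NONRATT004911.2 over G6pc, the last step of hepatic glucose output, was not in the 8 but also spread widely, at 492, 71.5 and 717 FPKM on ND and 52.5, 755, 277, 106 and 71.6 FPKM on HFD.

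Some genes carry many of these transcripts. Zmynd8, a chromatin reader, carries 9, of which 7 were tested and 2 were at 0. Their mean levels ran from 0 to 23.5 FPKM and their differences from -0.52 to 0.36. Nav2 and Zfp629 carry 8 each, with mean levels of 0.947 to 79.1 and 0.309 to 28.4 FPKM and differences of -0.62 to 0.54 and -0.93 to 0.76. Kif13a, Ptpn3, RT1-CE2 and Tanc2 carry 7 each; their lowest unadjusted p were 0.00567, 0.0408, 0.0285 and 0.171. Transcripts of 1 gene differed widely in level. In each of these 7 genes differences of both signs were found. The lowest limma unadjusted p was 0.355 in Zmynd8, 0.156 in Nav2 and 0.141 in Zfp629. Whether transcripts of 1 gene responded differently to diet was not tested.

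The genes themselves were compared from their counts. Of the 4610 overlapped genes 3527 could be tested and 1 passed edgeR's adjusted threshold (0.00707% of the 14148 genes tested did). It was Fer1l5, with 1.25, 1.15 and 1.42 gene FPKM on ND and 0.369, 0.397, 0.468, 0.323 and 0.371 gene FPKM on HFD and a log2 fold change of -1.74 ± 0.17 (SE; edgeR adjusted p = 0.0272). Every HFD library was below every ND library. No overlapped gene passed without ND-2, without ND-3, or without any one of HFD-1, HFD-2 and HFD-4. At an unadjusted p under 0.05 there were 206 (5.84%), beside 5.71% of all genes tested.

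DESeq2, an alternative, called 28 of 3701 overlapped genes (0.757%, 9 higher and 19 lower), beside 0.852% of all genes with an adjusted p (0.41% higher and 0.442% lower). These 28 genes carry 39 of the transcripts, 32 of them tested, and 18 of the 32 had an unadjusted p under 0.05 in the lncRNA test, beside 5.21% of all tested lncRNAs. Nothing is read from that count, since the 32 were picked through genes called in the same contrast and share bases and libraries with them. Some called genes carry several transcripts. Secisbp2l (DESeq2 log2 fold change -0.55, adjusted p = 2.71e-05) carries NONRATT019648.2, NONRATT019649.2 and NONRATT019650.2. Their differences were -0.25, 0.35 and -0.79 (limma unadjusted p = 0.479, 0.381 and 0.0738). Lrp2, an endocytic receptor (-0.68, DESeq2 adjusted p = 0.0225), carries NONRATT019359.2 at -0.51 and NONRATT019360.2 at 0.04 (limma unadjusted p = 0.152 and 0.956). Slc1a2 (1.14, DESeq2 adjusted p = 2.30e-05) carries NONRATT018398.2 at 2.3 and NONRATT018399.2 at 1.5 (limma unadjusted p = 0.0185 and 0.0028). Whether transcripts of 1 gene differed from each other or from the gene was not tested.

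As a share of all lncRNA FPKM, the transcripts made up 26.7%, 31.8% and 26.8% in ND-1 to ND-3 and 29.8%, 27.0%, 33.9%, 31.5% and 32.0% in HFD-1 to HFD-5. The means were 28.4% ± 2.96 (SD, n = 3) and 30.9% ± 2.61 (SD, n = 5). The difference of 2.44 percentage points was 4.14 without ND-2 and 1.55 without ND-1, and it was -0.10 when the 10 transcripts of highest mean FPKM were left out, so no direction is given. By depth the ranges did not overlap, the deep libraries spanning 26.7% to 29.8% and the shallow ones 31.5% to 33.9%.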

How the data were processed

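Liver RNA was sequenced in 3 ND and 5 HFD libraries with a TruSeq RNA kit, per the labels' protocols. The build was Rnor_6.0 and the tools named were Cuffdiff, Cufflinks 2.2.1 and TopHat2 2.0.9, per the submitters' processing notes. The sources used here do not give which of them made which table, or whether counting used strand. Deposited by the authors were a gene table with a raw read count and an FPKM per gene and library, and an lncRNA table with an FPKM and a fragment signal per transcript and library. That deposited signal was, for most values, a whole number of fragments times a constant of the library: divided by it, 83.7% to 84.6% of values up to 20 fragments were whole within 0.02. These are the estimated fragments in the text. Every per-sample column of both tables was mapped by its title, and 0 others were left unused.

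The members and gene lists were chosen with earlier results of these data known. Coordinates are those of the files. lncRNAs at 0.5 FPKM or more in at least 3 libraries were tested with limma 3.58.1 (variance trend, log2(FPKM + 0.5), Benjamini-Hochberg adjustment over 19799 transcripts), so a difference is on that scale and understates changes of low transcripts. Genes were tested with edgeR 4.0.16 (quasi-likelihood on counts) and, as an alternative, DESeq2 1.42.0, in R 4.3.3. The 2 tables were normalized separately and tested apart. The statistics were first tested on simulated data with planted differences. For lncRNAs these were of at least 2 log2 units and only in transcripts above a set level. Recovery of smaller differences, or at lower levels, was not tested.

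Transcripts were named by rule: the 8 with the smallest unadjusted p in each direction (mean of at least 1 FPKM in a diet), the 8 with the highest mean, the smallest p and highest level of each gene list, those at the thresholds, the genes with most transcripts, and those at 0 in 1 diet only. Others over the lipid lists, structured RNA and miRNA genes, with large spread, differing between depth sets, or over genes called by DESeq2 were named after their values were seen. Of 653 list symbols in 22 lists, 587 were found. Alternatives covered the pseudocount, the filter, scaling, variance model, library weights, depth set, replicate numbers, the overlap and intron limits, and leaving out each library. No pairing of ND and HFD libraries by replicate number was seen, as correlations of same-numbered deviations were 0.02, -0.10 and 0.02. With few fragments behind most transcripts, such values do not exclude a pairing. Results for some single transcripts counted in the text are not reported here.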

Additional observations from a re-analysis of the deposited data

Results flagged for a closer look

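Within the 5 HFD libraries, 4 of 55 named transcripts had 1 library far from the other 4, by Dixon's gap ratio above 0.71; chance flags about 1 in 20 groups. That rate does not hold for NONRATT023367.2 and NONRATT003648.2, which were named for their large spread between libraries. NONRATT023367.2, over the lipid droplet gene Plin2, stood at 62.4 FPKM in HFD-2, beside 4.73 to 8.03 FPKM in the other HFD libraries. NONRATT003648.2, in the region of Aldh1a7 and Trpm3, stood at 249.6 FPKM in HFD-4, beside 1.52 to 39.4 FPKM. NONRATT029313.2, at the edge of Fer1l5, stood at 2.11 FPKM in HFD-4, beside 0.586 to 0.985 FPKM, from 4 fragments against 1 to 3. NONRATT025532.2, over Creb3l3, stood at 195.7 FPKM in HFD-3, beside 127.9 to 146.4 FPKM; this transcript is one of those whose diets did not overlap.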

How the results depend on the processing

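The count of 0 transcripts called between the diets held under the alternatives run, except that without a variance trend 1 was called (NONRATT020540.2 over Eif2ak3, at 0 fragments on ND, which passed the filter only through HFD), and leaving out each library gave 0 to 1. The 1 came without ND replicate 2 (NONRATT018716.2 over Fkbp1a, with 0 to 2 fragments per library, limma adjusted p = 0.0456). The count of overlapped genes called, 1 with edgeR, was 4 without a filter, 28 with DESeq2, 0 with the replicate block and 0 where the gene had to hold at least 50% of the transcript's locus, a limit that leaves fewer genes. Leaving out each library gave 0 to 2 genes: 0 without any one of ND-2 and ND-3 or of HFD-1, HFD-2 and HFD-4, and 2 without ND-1 or HFD-5. The 0 under the 50% limit came from the set of genes. NONRATT029313.2 is the only transcript of the set over Fer1l5 and overlaps it by 32.1% of its locus, so Fer1l5 was left out. The cause of the other shifts was not tested. No pairing by replicate number was seen, though it is not excluded, and the replicate block called 0 transcripts as well.

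Of 693 alternative values for 39 named transcripts, 679 kept their direction and side of the threshold and 13 changed sign. All 13 were among lipid list transcripts with differences of at most 0.33 in size. The 679 do not measure robustness. Another filter or variance model cannot change the difference of a transcript that is still tested. Many of the 39 were also named for a small p in these same libraries, so a change of sign was unlikely. NONRATT016876.2 (Hadh, 0.00) gave -0.00056 with a pseudocount of 0.1, -0.0017 with FPKM scaled to the same upper quartile, -0.033 with library weights, and -0.16 to 0.26 when a library was left out. NONRATT016585.2 (Fdps) ranged over -0.55 to 0.10, NONRATT011508.2 (Acsl1) over -0.85 to 0.11, NONRATT005311.2 (Decr2) over -0.17 to 0.68 and NONRATT023452.2 (Cpt2) over -0.05 to 0.18, its lowest value being -0.0454. Most transcripts rest on few fragments, which limits what 3 and 5 libraries can show. The median SE was 0.43, and a change of several SE could go uncalled. The Ebp transcript, at -0.97 ± 0.17 (SE), had a limma adjusted p of 0.269. An uncalled transcript is not shown to be alike in both diets.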
